A study of Mus musculus with 46 samples.

Results

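The 10 genes described here, of 24537 or 25124 listed per experiment, encode proteins that restrain inflammatory signalling and that are themselves switched on by it. They were chosen by name, as the rows of the 4 expression tables whose gene symbol is Tnfaip3, Tnip1, Tnip3, Socs1, Socs3, Cish, Zfp36, Zc3h12a, Bcl3 or Traf1, and all 10 were found and passed the filter on low values in each experiment. Levels were measured by poly(A) RNA sequencing in mouse bone marrow-derived macrophages (BMDMs), cells grown from marrow precursors, in 23 groups of 2 samples. The 4 experiments, each with a table of its own, set perturbed against control cells under lipid A or LPS, ligands of the receptor TLR4, and the perturbations all act on SWI/SNF, a complex that moves nucleosomes with an ATPase subunit.

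In experiment 1, WT cells given ACBI1, BRM014 or BRDK98 and 4 hr of lipid A were set against untreated WT cells at 0, 1 and 4 hr. Experiment 2 set Arid1a-/- cells at 1 and 4 hr of LPS against Arid1af/f cells at 0, 1 and 4 hr. Experiment 3 set Pbrm1-/- cells at 4 hr of lipid A against Pbrm1f/f cells at 0 and 4 hr. In experiment 4, WT cells given each compound for 20 or 60 min of lipid A were set against untreated WT cells at 0, 20 and 60 min. ACBI1 marks the ATPase subunits SMARCA2 and SMARCA4, and also PBRM1, for degradation. BRM014 blocks the catalytic activity of SMARCA4 and SMARCA2 without removing them. For BRDK98 a code name is all that is used here. The labels give no dose, no time of pretreatment, no age and no Cre driver. Unstimulated cells with a compound or a knockout were not analysed here, and a change in resting cells and one in the response cannot be told apart. At each time the 3 compounds share their controls. Replicate 2 of the 4 hr control in experiment 1 was not analysed here, which leaves 45 libraries and a control of 1 library for the compounds at 4 hr.

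TLR4 activates NF-kB and the mitogen-activated kinases, and the interferons and cytokines made in response signal back through JAK kinases and STAT factors. Genes of this set act as brakes at 4 levels of that circuit. TNFAIP3 is a ubiquitin-editing enzyme that dismantles NF-kB signalling complexes, and TNIP1 and TNIP3 bind ubiquitin chains, TNIP1 acting as a partner of TNFAIP3. SOCS1, SOCS3 and CISH belong to the suppressor of cytokine signalling family, which blocks JAK kinases or their docking sites on receptors. ZFP36 (tristetraprolin) binds AU-rich elements and speeds the decay of cytokine mRNAs, and ZC3H12A (regnase-1) cleaves stem-loops in many of the same mRNAs. BCL3 is an atypical IkB protein that acts on NF-kB dimers in the nucleus, and TRAF1 is a TNF receptor-associated adaptor that can hold back linear ubiquitin signals downstream of TLR4.

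In mm10, the gene models lie at chr10:19000910-19011963 (Tnfaip3), chr11:54910787-54962940 (Tnip1), chr6:65590398-65634040 (Tnip3), chr16:10783809-10785536 (Socs1), chr11:117966087-117969366 (Socs3), chr9:107296659-107302784 (Cish), chr7:28376784-28379228 (Zfp36), chr4:125118414-125127881 (Zc3h12a), chr7:19808462-19822755 (Bcl3) and chr2:34941750-34961772 (Traf1). The promoters of the 7 members in which a searched element was found are printed, to show which members carry sites for the factors of the pathways that these proteins restrain. The windows searched reach from 250 bases before to 50 after the start of each gene (RefSeq, build GRCm38.p6). The stretch of each that holds the matches is printed in the gene's own direction, with the matches in capitals. An NF-kB consensus on either strand was held by Tnip1, Tnip3 and Bcl3, against 4.51% of 32851 promoters of the same length. The STAT element TTCNNNGAA was held by Tnip1, Socs3, Cish and Zfp36, with 2 copies around the start of Cish, against 8.3% of all promoters. Socs1 alone held the interferon-stimulated response element, searched as GAAA, any 2 bases and GAAA again, in 2 overlapping copies (3.44% of all promoters), and Zfp36 alone held a CArG box (1.63%). In Tnip1 the capitals of the NF-kB consensus cover 3 overlapping matches.
Tnip1, chr11:54962941-54963150, minus strand: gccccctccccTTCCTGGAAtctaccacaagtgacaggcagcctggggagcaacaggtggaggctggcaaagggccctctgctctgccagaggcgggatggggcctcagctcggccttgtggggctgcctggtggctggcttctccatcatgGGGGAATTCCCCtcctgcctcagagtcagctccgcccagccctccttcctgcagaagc
Tnip3, chr6:65590298-65590397, plus strand: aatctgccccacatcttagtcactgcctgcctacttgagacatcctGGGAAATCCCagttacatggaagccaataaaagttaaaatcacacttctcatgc
Bcl3, chr7:19822736-19822815, minus strand: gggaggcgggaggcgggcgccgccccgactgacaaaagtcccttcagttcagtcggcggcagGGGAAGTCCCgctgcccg
Socs3, chr11:117969367-117969536, minus strand: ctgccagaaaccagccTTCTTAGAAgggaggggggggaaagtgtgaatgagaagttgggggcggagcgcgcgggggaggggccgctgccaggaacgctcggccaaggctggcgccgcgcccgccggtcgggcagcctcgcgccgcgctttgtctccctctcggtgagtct
Cish, chr9:107296599-107296683, plus strand: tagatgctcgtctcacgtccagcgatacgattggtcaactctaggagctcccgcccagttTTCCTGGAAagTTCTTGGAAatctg
Zfp36, chr7:28379229-28379308, minus strand: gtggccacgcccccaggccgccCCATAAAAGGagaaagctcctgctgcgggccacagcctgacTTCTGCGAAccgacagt
Socs1, chr16:10785537-10785636, minus strand: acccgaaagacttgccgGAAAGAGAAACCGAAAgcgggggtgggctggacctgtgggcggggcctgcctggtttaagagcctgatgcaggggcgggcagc
The AP-1 element TGANTCA (7.81% of all promoters) and the cyclic AMP response element TGACGTCA (1.79%) were found in 0 of the 10 windows. Tnfaip3, Zc3h12a and Traf1 held none of the 6 elements. A match is a run of letters and not a bound site, and its absence from a window says nothing of a factor acting elsewhere.

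Values are TPM, a level scaled per library and per transcript length. The libraries held 7015040 to 27526921 exonic reads as recovered from the TPM, and 3 reads on a transcript of 2000 bases correspond to 0.0654 to 0.298 TPM. Read numbers behind a value ran from 3 to 2485 for Socs1, from 17 to 1220 for Cish and from 1039 to 176299 for Zfp36. Defining macrophage genes, 8 of 8 tested, summed to 14202 to 46975 TPM over the single libraries, and lymphocyte genes to at most 1.24 TPM. In experiment 1 the macrophage sum was 19037 TPM in the 4 hr control, the lowest library, against 46975 TPM in the highest, a library at 0 hr. Granulocyte genes summed to 277 to 524 TPM in experiments 3 and 4, against 6.54 to 52.8 TPM in experiments 1 and 2. Stromal and endothelial genes, 2 or 3 of 8 tested, had both extremes in experiment 1. They summed to 1.53 TPM in the lowest library, with BRM014 at 4 hr, and to 148 TPM in the highest, a 1 hr control. In experiment 2 they summed to 65 TPM in the highest library, of Arid1a-/- cells at 4 hr, against 2.09 TPM in the lowest, of Arid1af/f cells at 0 hr. Dendritic cell genes reached at most 9.85 TPM. The part of these markers in the results was not tested. In experiment 3 the 2 control libraries at 4 hr stood apart from each other over all genes (replicate SD 0.328). Results that rest on replicate 2 are given with and without it, though nothing shows which of the 2 deviates. In experiment 4 the replicate SD was highest for BRM014 at 60 min (0.309, against 0.126 in the lowest group). Standard errors pool all groups of an experiment and do not show the wider spread of such a pair. In bulk RNA, fewer cells with a transcript and less of it per cell cannot be told apart. In what follows a change is a log2 difference of TPM + 1 with its standard error, and a gene rose or fell only where limma, fitted over all tested genes of an experiment, called it at an adjusted p of 0.05 with the same sign on TPM as deposited and on TPM rescaled by a median ratio. The p given is the larger of the 2 adjusted p-values. Nothing states that replicates were separate animals or cultures, so these p-values measure the spread between the samples at hand.

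Before stimulation the members differed widely in level. Over the 8 resting control libraries, Tnip1 ranged from 44.9 to 53.9 TPM, a narrow span, and Tnfaip3 from 5.08 to 23.2 TPM. Zfp36 was the most abundant member at rest, with 83.2 to 134 TPM, and Traf1 had 0.957 to 1.8 TPM. Cish had 0.565 to 1.33 TPM in experiments 1 and 3 and 0.713 to 1.19 TPM in experiments 2 and 4, and Socs1 was lowest in experiment 2, with 0.256 and 0.312 TPM. Within an experiment, Cish and Traf1 at rest overlapped in experiments 1 and 4, and Cish was the lower in experiments 2 and 3. The resting ranges of Tnip3 (11.3 to 17.7 TPM) and Zc3h12a (8.75 to 17.6 TPM) overlapped.

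At 20 min of lipid A, 4 of the 10 members had risen and 0 had fallen, while 0.736% of all tested genes rose and 0.32% fell. Socs3 reached 147 and 150 TPM at 20 min, against 12.3 and 13.9 TPM at 0 min (3.41 ± 0.08, adjusted p = 3.39e-11). Zfp36 reached 1098 and 1045 TPM, against 125 and 134 TPM at 0 min (3.04 ± 0.10, adjusted p = 1.42e-10). These were the largest changes of any member at that time, 1 from the SOCS family and 1 mRNA decay factor. Tnfaip3 rose less, to 29.3 and 30.4 TPM, against 16.9 and 16.7 TPM at 0 min (0.79 ± 0.08, adjusted p = 4.8e-05). Zc3h12a stood at 23.2 and 23.7 TPM, against 16.6 and 16.2 TPM at 0 min (0.49 ± 0.10, adjusted p = 0.0352), a call that was lost when any 1 of these 4 libraries was left out. The other 6 members changed by -0.09 to 0.53 and did not pass.

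By 60 min all 10 members had risen over 0 min, where 7.47% of all genes rose and 17.8% fell. Their median change was 2.58, where the median of all tested genes was -0.33. Tnfaip3 reached 1051 and 1109 TPM (5.92 ± 0.08), Socs3 1346 and 1306 TPM (6.56 ± 0.08) and Zfp36 4226 and 3946 TPM (4.97 ± 0.10). Traf1, nearly silent at 20 min with 1.22 and 0.925 TPM, stood at 27.5 and 24.3 TPM at 60 min (3.70 ± 0.14 over 20 min, adjusted p = 1.23e-10). The smallest increases over 0 min were those of Bcl3 (0.69 ± 0.12), Socs1 (1.15 ± 0.20) and Tnip1 (1.27 ± 0.08). All 10 also rose between 20 and 60 min (7.34% of all genes rose and 15.9% fell), though the call of Socs1 (0.62 ± 0.20, adjusted p = 0.0162) was lost without 20 min control replicate 1 or 2 or 60 min control replicate 1.

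**Figure D1:**
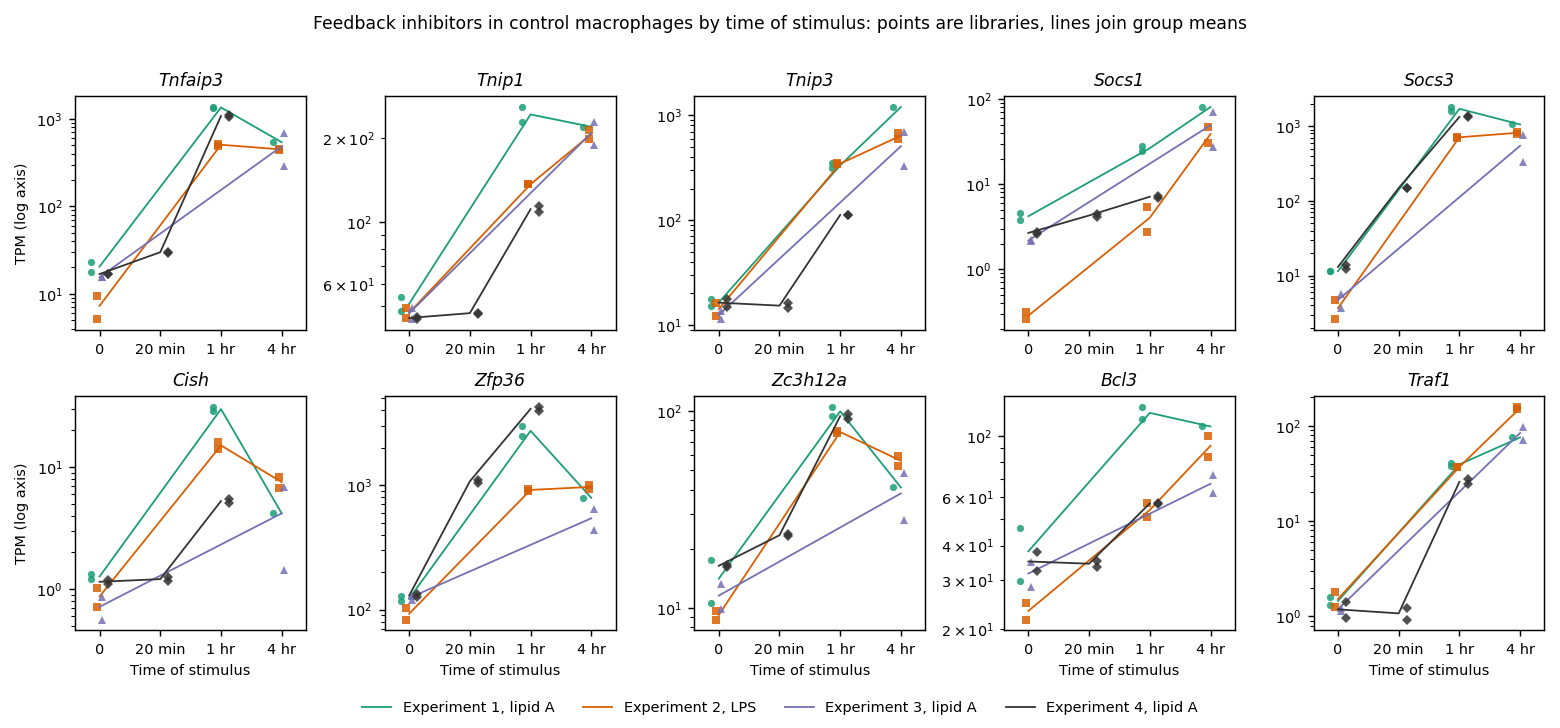
Levels of the 10 members in control macrophages by time of lipid A or LPS; each point is a library, the vertical axis is TPM on a log scale and the colours mark the 4 experiments. Socs3 and Zfp36 are already high at 20 min, and Tnip3, Socs1 and Traf1 are higher at 4 hr than at 1 hr.

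Later times separated members that kept climbing from members that had passed their highest sampled level. In WT cells of experiment 1 all 10 had risen at 1 hr (9.9% of all genes rose and 19.3% fell) and at 4 hr of lipid A (20.1% rose and 37.2% fell). Between 1 and 4 hr, 3 rose, 4 fell and 3 did not pass, with 22.7% of all genes risen and 34.6% fallen. Tnip3 reached 1199 TPM at 4 hr, against 351 and 314 TPM at 1 hr (1.85 ± 0.11, adjusted p = 2.57e-07). Socs1 reached 80.9 TPM at 4 hr, against 24.8 and 28.2 TPM at 1 hr (1.58 ± 0.15), and Traf1 75.7 TPM, against 38.2 and 40.7 TPM (0.92 ± 0.17). Both mRNA decay factors, Tnfaip3 and Cish fell. Cish was down to 4.18 TPM at 4 hr, against 28.7 and 31 TPM at 1 hr (-2.57 ± 0.16, adjusted p = 1.18e-06), and Zfp36 to 789 TPM, against 2474 and 2974 TPM (-1.78 ± 0.12). Tnfaip3 fell by 1.32 ± 0.13 and Zc3h12a by 1.26 ± 0.23, and the call of Zc3h12a was lost without 1 hr control replicate 2. The 4 hr value is a single library, assumed to vary like the others, and all genes had a median of -0.45 between these times.

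In Arid1af/f cells given LPS, all 10 members likewise rose at 1 hr (13.6% of all genes rose and 20.3% fell) and at 4 hr (17.9% rose and 35.3% fell). Limma voom on the recovered reads called 9 of the 10 members at 1 hr. From 1 to 4 hr, 5 rose, 1 fell and 4 did not pass, where 17.7% of all genes rose and 32.2% fell. Traf1 stood at 151 and 158 TPM at 4 hr, against 37.4 and 36.8 TPM at 1 hr (2.03 ± 0.11), and Socs1 at 30.1 and 47.6 TPM, against 2.73 and 5.32 TPM (adjusted p = 0.000142). Tnip1, Tnip3 and Bcl3 rose by 0.59 to 0.88. Cish was again lower at 4 hr, with 6.79 and 8.28 TPM, against 14 and 16.1 TPM at 1 hr (-0.91 ± 0.14, adjusted p = 0.025), a call lost without 1 hr control replicate 2 or 4 hr control replicate 1. Zfp36, at 932 and 1000 TPM against 931 and 896 TPM, did not pass (0.08 ± 0.11, 95% interval -0.16 to 0.32). The 2 stimuli were in different experiments and were not compared. In Pbrm1f/f cells 9 members had risen at 4 hr of lipid A (16% of all genes rose and 30.3% fell) and Cish did not pass (1.36 ± 0.58, adjusted p = 0.0795). Without 4 hr control replicate 2 all 10 rose, Cish by 2.21.

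At 20 min the compounds already differed in what they did to the earliest members. With BRDK98, Socs3 stood near its level in untreated resting cells and Tnfaip3 stood below its own. Socs3 had 18.6 and 22.5 TPM with BRDK98 and 62.7 and 66.4 TPM with BRM014, against 147 and 150 TPM in control cells at 20 min (-2.80 ± 0.08, adjusted p = 4.8e-09, and -1.19 ± 0.08, adjusted p = 4.29e-05). Tnfaip3 had 7.17 and 8.16 TPM with BRDK98, against 29.3 and 30.4 TPM in control cells (-1.83 ± 0.08, adjusted p = 2.84e-08), and control cells at 0 min held 16.9 and 16.7 TPM. Zfp36 was less affected, with 645 and 823 TPM with BRDK98, against 1098 and 1045 TPM in control cells (-0.55 ± 0.10, adjusted p = 0.0111), and this call was lost without BRDK98 replicate 1 or either control. The fallen members were thus 3 of 10 with BRDK98, where 0.84% of all genes fell and 0.485% rose, and 1 of 10 with BRM014, where 0.329% fell and 0.0606% rose. With ACBI1 the single call was upward, Tnfaip3 at 47.5 and 41.1 TPM, against 29.3 and 30.4 TPM in control cells (0.55 ± 0.08, adjusted p = 0.0153), where 0.0779% of all genes rose and 0.0606% fell, and it was lost when any 1 of these 4 libraries was left out.

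**Figure D2:**
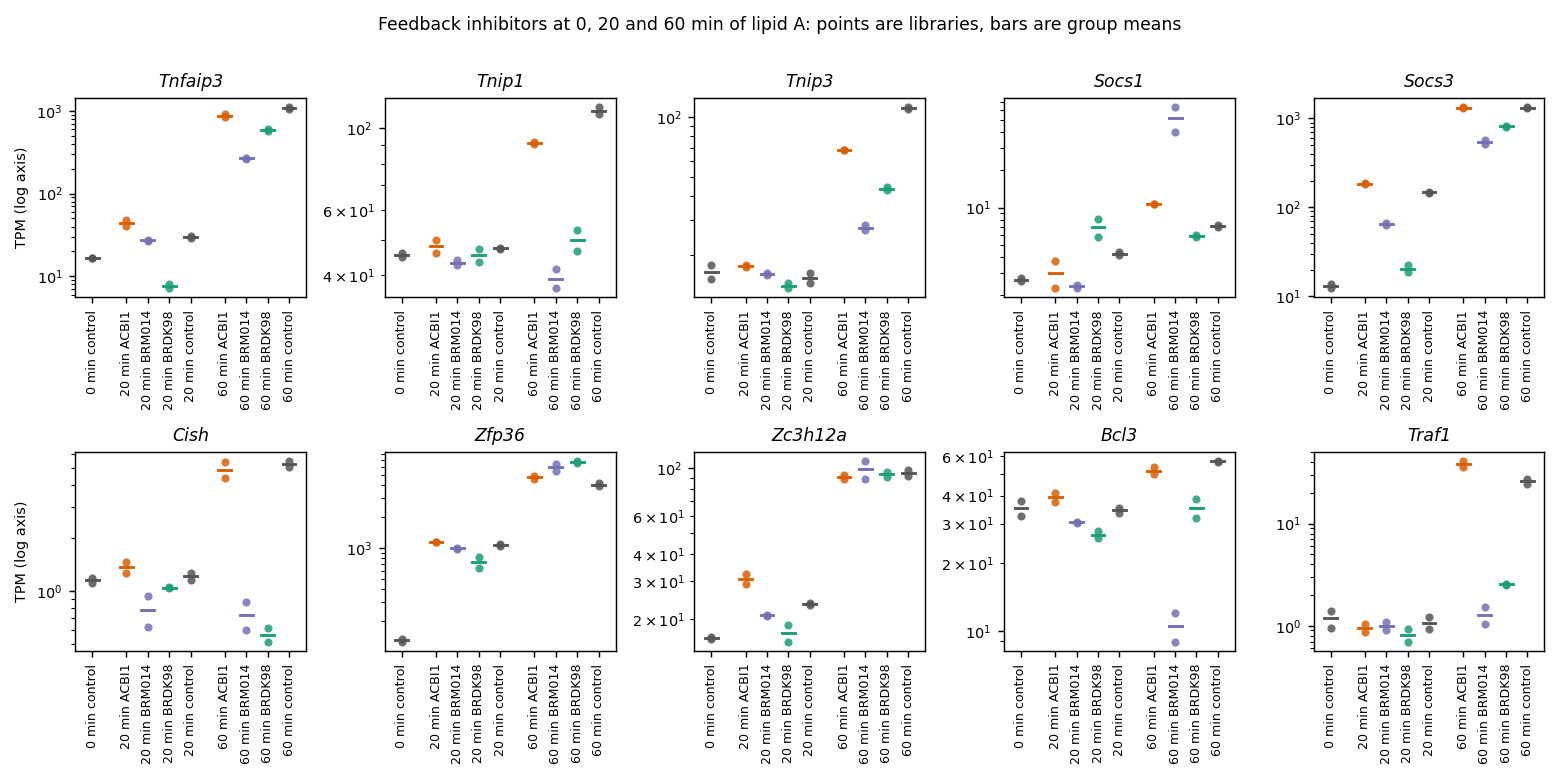
Members in WT macrophages at 0, 20 and 60 min of lipid A with and without compound; points are libraries, bars are group means and the vertical axis is TPM on a log scale. At 60 min Traf1 lies near 1 TPM with BRM014 and near 2.5 TPM with BRDK98, against 27.5 and 24.3 TPM in control cells, while Socs1 is highest with BRM014.

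At 60 min 7 members fell and 2 rose with BRM014, where 13.4% of all genes fell and 16.4% rose. With BRDK98 the same 7 fell and 1 rose, where 5.52% of all genes fell and 6.04% rose. The medians were -1.67 with BRM014 and -0.80 with BRDK98, where those of all tested genes were 0.04 and 0.08. With ACBI1 1 member fell and 1 rose, where 13.4% of all genes fell, 11.6% rose and their median was -0.14. Of 7 granulocyte genes tested, 4 fell with ACBI1 at this time, and their part in the result was not tested.

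Among the NF-kB brakes, Traf1 fell most at 60 min with BRM014 and BRDK98. It had 1.54 and 1.04 TPM with BRM014 and 2.57 and 2.52 TPM with BRDK98, against 27.5 and 24.3 TPM in control cells (-3.56 ± 0.14, adjusted p = 6.95e-10, and -2.92 ± 0.14, adjusted p = 5.77e-09). Of the rise that control cells made above rest, 0.417% was left with BRM014 and 5.51% with BRDK98, taking untreated cells at 0 min as rest for both. With ACBI1 it was higher than in control cells, at 36 and 41.4 TPM (0.56 ± 0.14, adjusted p = 0.00637), a call lost without ACBI1 replicate 2 or 60 min control replicate 2. Bcl3 had 12 and 8.92 TPM with BRM014, against 56.6 and 57.2 TPM in control cells (-2.35 ± 0.12, adjusted p = 3.14e-08). That is under its level in cells without stimulus, 32.3 and 37.8 TPM. With BRDK98 it had 38.6 and 31.8 TPM (-0.68 ± 0.12, adjusted p = 0.00253), close to that resting level.

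Tnfaip3 and its partners fell with both of these compounds. Tnfaip3 had 269 and 264 TPM with BRM014 and 564 and 594 TPM with BRDK98, against 1051 and 1109 TPM in control cells (-2.01 ± 0.08 and -0.90 ± 0.08). Tnip1 had 41.5 and 36.9 TPM with BRM014 and 52.9 and 46.6 TPM with BRDK98, against 109 and 114 TPM in control cells (-1.48 ± 0.08 and -1.15 ± 0.08), and control cells at 0 min held 44.9 and 46 TPM. Tnip3 fell with all 3 compounds, to 68.4 and 68.2 TPM with ACBI1, 28.2 and 26.8 TPM with BRM014 and 42.5 and 44.3 TPM with BRDK98, against 111 and 113 TPM in control cells (adjusted p = 0.000739, 1.43e-09 and 7.09e-08). It was the only member that fell with ACBI1 at this time.

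The SOCS family split at 60 min. Socs1 had 40.3 and 63.4 TPM with BRM014, against 7.28 and 6.95 TPM in control cells (2.67 ± 0.20, adjusted p = 2.2e-07), the largest increase of any member under a compound. With BRDK98 it had 5.79 and 6.02 TPM (-0.23 ± 0.20, 95% interval -0.66 to 0.19), and with ACBI1 10.6 and 10.7 TPM (0.52 ± 0.20, adjusted p = 0.0526), neither passing. The authors' deposited DESeq2 comparison called Socs1 higher with ACBI1 (0.73, adjusted p = 0.00266). Its relative Socs3 went the other way with BRM014, at 567 and 521 TPM, against 1346 and 1306 TPM in control cells (-1.29 ± 0.08), and had 827 and 800 TPM with BRDK98 (-0.70 ± 0.08). Cish had 0.862 and 0.596 TPM with BRM014 and 0.614 and 0.513 TPM with BRDK98, against 5.49 and 5.05 TPM in control cells (adjusted p = 4.65e-08 and 3.14e-08), which is below its 1.19 and 1.11 TPM at 0 min. With ACBI1, Socs3 (0.00 on this scale) and Cish (-0.10) did not pass.

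The mRNA decay factors did not fall at 60 min with any compound. Zfp36 had 5507 and 6410 TPM with BRM014 and 6940 and 6619 TPM with BRDK98, against 4226 and 3946 TPM in control cells (0.54 ± 0.10, adjusted p = 0.00108, and 0.73 ± 0.10, adjusted p = 0.000234). Zc3h12a had 92.4 and 88.9 TPM with ACBI1, 108 and 89.1 TPM with BRM014 and 96 and 90.6 TPM with BRDK98, against 91.5 and 97.3 TPM in control cells. Its changes were -0.06, 0.05 and -0.02, each with a 95% interval inside -0.27 to 0.26. The 7 fallen members and Zfp36 therefore moved in opposite directions in the same libraries. In the authors' deposited DESeq2 comparisons Zfp36 was called higher with BRDK98 (0.64, adjusted p = 2.36e-12). It was also called higher there with ACBI1 (0.41, adjusted p = 7.17e-05), a change that did not pass here. With BRM014 it was not called there (0.48, adjusted p = 0.134), so its rise with BRM014 depends on the test used.

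Effects at 60 min were compared directly with those at 20 min in an interaction term. With BRM014 it was called for 8 members, with 13.1% of all genes called, among them Traf1 (-3.52 ± 0.20) and Socs1 (3.32 ± 0.28). With BRDK98 it was called for 7, with 6.65% of all genes called. There Socs3 (2.10 ± 0.12, adjusted p = 3.76e-07) and Tnfaip3 (0.93 ± 0.11, adjusted p = 0.0003) were less reduced at 60 than at 20 min, and Traf1 (-2.73 ± 0.20) and Cish (-1.89 ± 0.17) more so. Control cells at 20 min held only 1.22 and 0.925 TPM of Traf1 and 1.16 and 1.26 TPM of Cish. Both had little room to fall then, so their terms largely restate the 60 min changes. With ACBI1 the interaction term was called for 4 members, with 18.3% of all genes called.

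At 4 hr of lipid A, 6 members fell with ACBI1, where 13.5% of all genes fell and 20% rose. With BRM014 7 fell, where 16.4% of all genes fell and 26.4% rose. With BRDK98 7 fell and 2 rose, where 12.4% of all genes fell and 22% rose. The medians were -0.62, -0.79 and -2.02, where those of all tested genes were 0.25, 0.43 and 0.46. Each compound had 2 libraries and shared the 1 control library, so a deviation of that library would enter all 3 comparisons. Traf1 had 44 and 48.8 TPM with ACBI1, 14.1 and 13.3 TPM with BRM014 and 3.75 and 5.33 TPM with BRDK98, against 75.7 TPM in the control (adjusted p = 0.00661, 1.71e-06 and 1.41e-07). Tnip3 had 514 and 495 TPM with ACBI1, 440 and 429 TPM with BRM014 and 197 and 191 TPM with BRDK98, against 1199 TPM in the control (-1.25, -1.46 and -2.62). These 2 and Zc3h12a were the members that fell with all 3 compounds, although the calls of Zc3h12a with ACBI1 and BRM014 (-0.67 each) were lost when either library of the compound was left out.

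**Figure D3:**
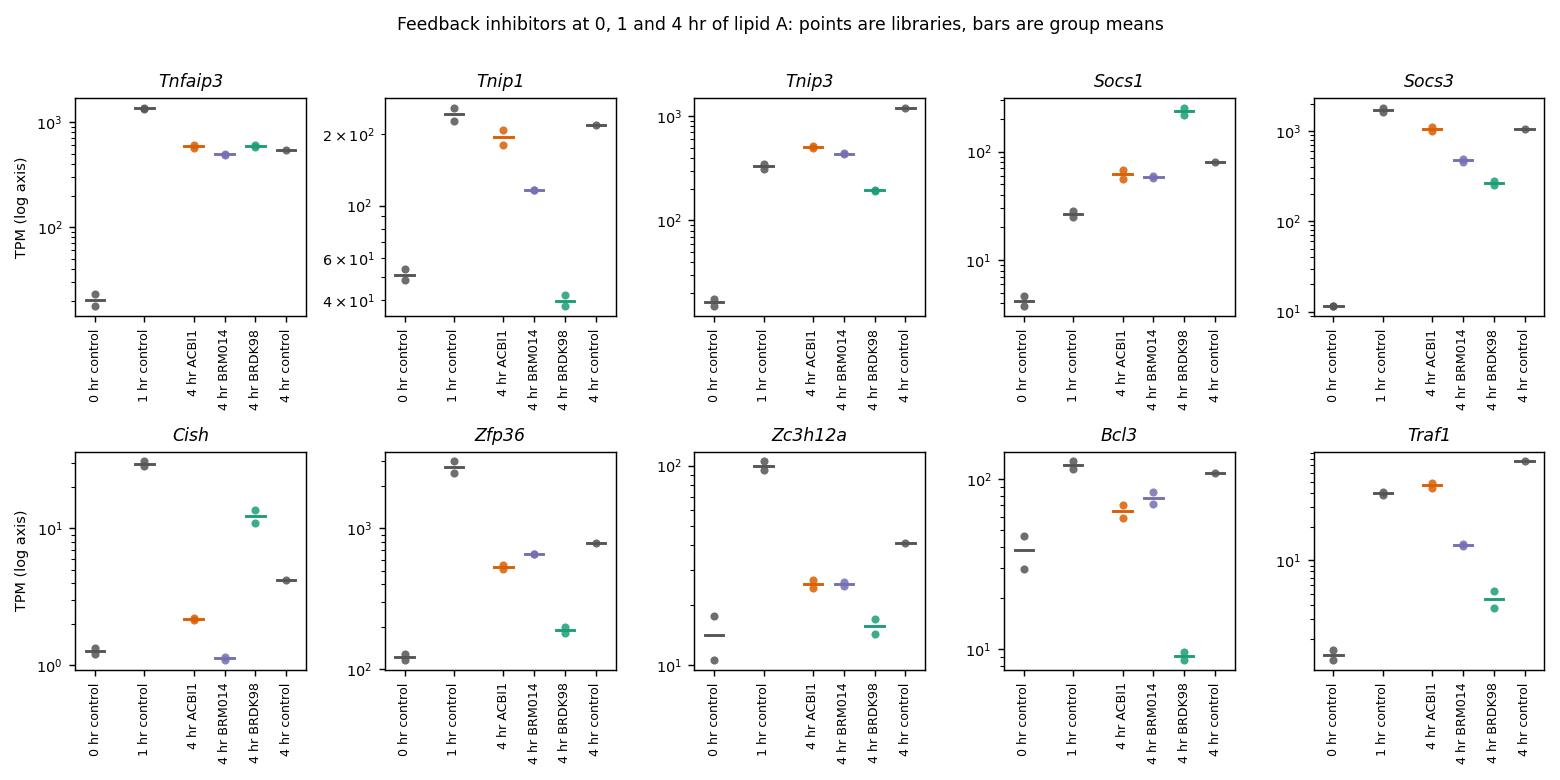
Members in WT macrophages at 0, 1 and 4 hr of lipid A and with each compound at 4 hr; points are libraries, bars are group means, the vertical axis is TPM on a log scale and the 4 hr control is a single library. With BRDK98, Bcl3 and Tnip1 lie below their 0 hr levels on TPM as deposited, a difference that was not tested. Socs1 and Cish with BRDK98 lie above the 4 hr control.

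BRDK98 gave the largest decreases at 4 hr. Bcl3 had 9.64 and 8.66 TPM with BRDK98, against 108 TPM in the control (-3.43 ± 0.23, adjusted p = 4.64e-06), below the 29.8 and 46.5 TPM of cells without stimulus. Tnip1 had 41.8 and 37.6 TPM, against 220 TPM (-2.45 ± 0.13), and Zfp36 181 and 199 TPM, against 789 TPM (-2.05 ± 0.12). Thus Zfp36 was above control with BRDK98 at 60 min and below it at 4 hr, in separate experiments. Zc3h12a had 14.3 and 17 TPM, against 41 TPM in the control (-1.35 ± 0.23), within its resting range. Socs3 had 250 and 279 TPM, against 1053 TPM (-1.99 ± 0.11).

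A pair of SOCS genes rose with BRDK98 at 4 hr. Socs1 had 217 and 253 TPM, against 80.9 TPM in the control (1.52 ± 0.15, adjusted p = 0.00157). Cish had 11 and 13.7 TPM, against 4.18 TPM (1.36 ± 0.16, adjusted p = 0.0023), while the other 2 compounds lowered it, to 2.22 and 2.13 TPM with ACBI1 (-0.71 ± 0.16) and 1.15 and 1.09 TPM with BRM014 (-1.29 ± 0.16). Socs1 with BRM014 had 59.2 and 56.9 TPM (-0.47 ± 0.15, adjusted p = 0.0208), a call lost without BRM014 replicate 2, and with ACBI1 55.9 and 68 TPM (adjusted p = 0.0626). Tnfaip3 did not pass with any compound at 4 hr, with 572 and 610 TPM with ACBI1, 501 and 484 TPM with BRM014 and 578 and 600 TPM with BRDK98, against 541 TPM in the control. Its change with BRDK98 was 0.12 ± 0.13 on TPM as deposited and -0.52 after median scaling, so its direction depends on the scaling. The authors' deposited DESeq2 comparison called Tnfaip3 lower with BRDK98 (-0.45, adjusted p = 1.21e-24).

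Further members fell with BRM014 or ACBI1 at 4 hr. With BRM014, Tnip1 (117 and 117 TPM, -0.91 ± 0.13) and Socs3 (456 and 494 TPM, -1.15 ± 0.11) fell, and Zfp36 (661 and 662 TPM) and Bcl3 (84.2 and 71.5 TPM) did not pass. With ACBI1, Zfp36 (517 and 552 TPM, -0.56 ± 0.12) and Bcl3 (58.8 and 70.4 TPM, -0.74 ± 0.23) fell, the call of Bcl3 being lost without ACBI1 replicate 1. Tnip1 (180 and 209 TPM) and Socs3 (1007 and 1111 TPM) did not pass with ACBI1. In the authors' deposited table all 10 members were called lower with ACBI1 and all 10 with BRM014 at 4 hr. The call here was the same for 6 members with ACBI1 and 7 with BRM014, and opposite for 0. The share of all genes that the authors called lower was not worked out, so these counts are not a result particular to the members.

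The compounds were also compared with each other at matched times, 3 pairs at 3 times for each member, which makes 90 tests; doses are not in the labels. At 60 min BRDK98 was higher than BRM014 for 6 members and lower for Socs1, with 26.5% of all genes called. At 4 hr the order had turned, BRDK98 being lower for 7 members and higher for Socs1 and Cish, with 45.3% called. Bcl3 differed by 1.67 ± 0.12 at 60 min and by -2.95 ± 0.19 at 4 hr in BRDK98 minus BRM014 (limma, adjusted p = 1.76e-06 and 3.6e-06). Socs1 differed by -2.90 ± 0.20 at 60 min and 1.99 ± 0.13 at 4 hr (adjusted p = 1.17e-07 and 1.39e-06), and Cish by -0.14 at 60 min, with a 95% interval of -0.40 to 0.11, and by 2.65 ± 0.13 at 4 hr. The 2 times come from different experiments, so the change of order itself was not tested.

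ACBI1 was set against the other compounds in the same way. At 60 min BRM014 was lower than ACBI1 for 7 members and higher for Socs1 (46.7% of all genes called), and BRDK98 was lower than ACBI1 for 8 (34.4%). At 4 hr BRM014 was lower than ACBI1 for 4 members, Tnip1, Socs3, Cish and Traf1 (30.1% of all genes called), and BRDK98 was lower for 7 and higher for 2 (36.5%). At 20 min, 2 members were lower with BRM014 than with ACBI1 (0.346% of all genes called), Tnfaip3 (-0.68 ± 0.08) and Socs3 (-1.49 ± 0.08). BRDK98 at 20 min was lower than ACBI1 for 4 members and higher for Socs1 (1.56%), and lower than BRM014 for 2 and higher for Socs1 (0.935%). The calls of Socs1 at 20 min rest on 2.27 to 8.1 TPM and were lost without BRDK98 replicate 1, and also without ACBI1 replicate 2 or either BRM014 library of the pair. The calls of Zc3h12a at 4 hr in BRDK98 against each other compound, and of Tnip1 at 60 min in BRDK98 against BRM014, were likewise lost when single libraries were left out. For Zc3h12a the 3 pairs at 60 min differed by 0.11, 0.04 and -0.07, with 95% intervals reaching from -0.28 to 0.32.

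**Figure D4:**
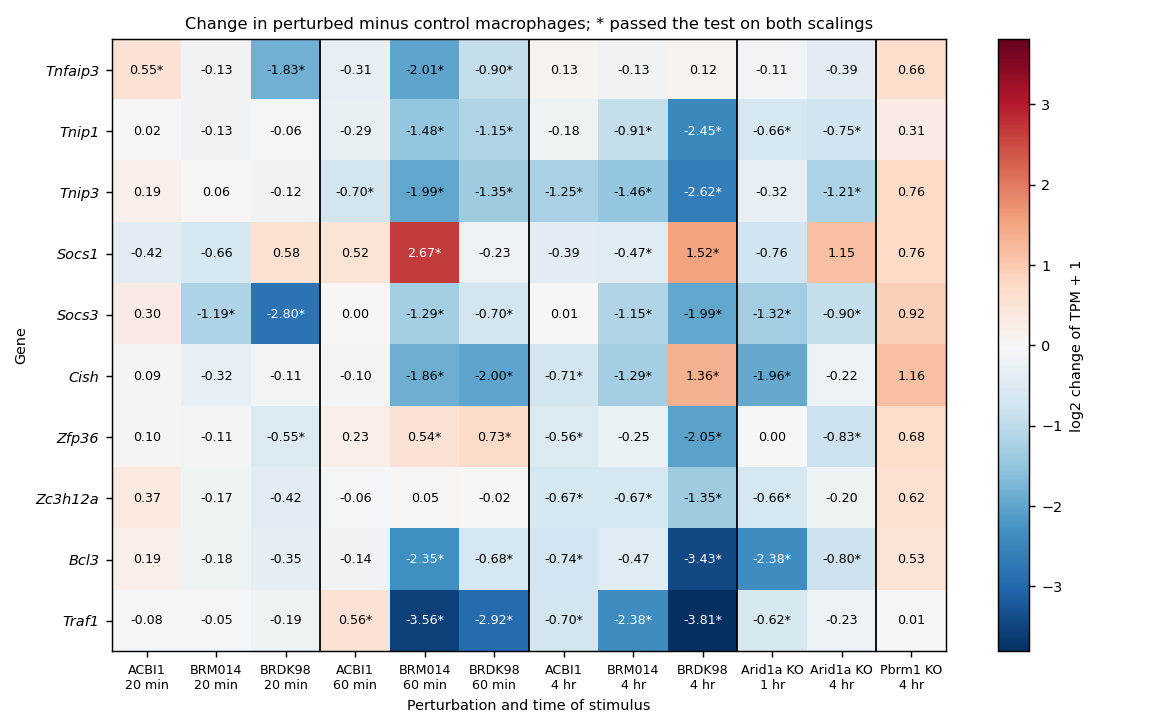
Log2 changes of TPM + 1 for each member (rows) in perturbed minus control macrophages (columns, by perturbation and time of stimulus); colour gives direction and size, and a star marks a change that passed the test on both scalings. Traf1 and Bcl3 hold the deepest decreases and Socs1 the largest increase.

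In Arid1a-/- macrophages given LPS for 1 hr, 6 members fell and 0 rose, where 16.8% of all genes fell and 18.8% rose. Of the 8 macrophage genes 5 fell with them, with a median of -0.37, and their part in the result was not tested. The targeted transcript had 7.17 and 13.2 TPM in Arid1a-/- cells, against 18.3 and 17.3 TPM in Arid1af/f cells at 1 hr (-0.80 ± 0.21, adjusted p = 0.0165), and 25.4 and 26.1 TPM against 35.2 and 41.9 TPM at 4 hr (adjusted p = 0.0838). The deleted exons are not in the labels, so the level of the whole transcript is a limited check of the knockout. Bcl3 had 8.95 and 10.2 TPM in Arid1a-/- cells, against 56.9 and 50.8 TPM in Arid1af/f cells (-2.38 ± 0.14, adjusted p = 2.19e-06), under the 24.8 and 21.6 TPM of Arid1af/f cells without stimulus. Cish had 3.31 and 2.95 TPM in Arid1a-/- cells, against 14 and 16.1 TPM (-1.96 ± 0.14, adjusted p = 7.53e-06). Socs3 had 278 and 288 TPM, against 704 and 714 TPM (-1.32 ± 0.18, adjusted p = 0.000495). Tnip1 (-0.66 ± 0.08), Zc3h12a (-0.66 ± 0.09) and Traf1 (-0.62 ± 0.11) fell by less. Tnfaip3 had 418 and 524 TPM in Arid1a-/- cells, against 516 and 496 TPM, and Zfp36 837 and 990 TPM, against 931 and 896 TPM, so that their groups overlapped. Tnip3 (-0.32 ± 0.13, adjusted p = 0.0675) and Socs1 (-0.76 ± 0.36, adjusted p = 0.136) did not pass.

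At 4 hr of LPS, 5 members fell and 0 rose in Arid1a-/- cells, where 10.8% of all genes fell and 14% rose. Tnfaip3, Zc3h12a and Traf1 did not pass here, but the authors' deposited DESeq2 comparison called them lower (-0.48, -0.28 and -0.31). Tnip3 had 294 and 260 TPM in Arid1a-/- cells, against 679 and 600 TPM in Arid1af/f cells (-1.21 ± 0.13, adjusted p = 9.84e-05). Zfp36, which did not pass at 1 hr, had 530 and 556 TPM, against 932 and 1000 TPM (-0.83 ± 0.11, adjusted p = 0.000396). Socs3 (431 and 446 TPM, against 791 and 847 TPM), Tnip1 (123 and 121 TPM, against 199 and 215 TPM) and Bcl3 (46 and 58.9 TPM, against 84 and 99.9 TPM) fell at both times. Socs1 had 62.8 and 116 TPM in Arid1a-/- cells, against 30.1 and 47.6 TPM, and did not pass (1.15 ± 0.36, adjusted p = 0.0607). With single libraries left out its change ranged from 0.72 to 1.59, and it was called higher without Arid1a-/- replicate 1 or Arid1af/f replicate 2.

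**Figure D5:**
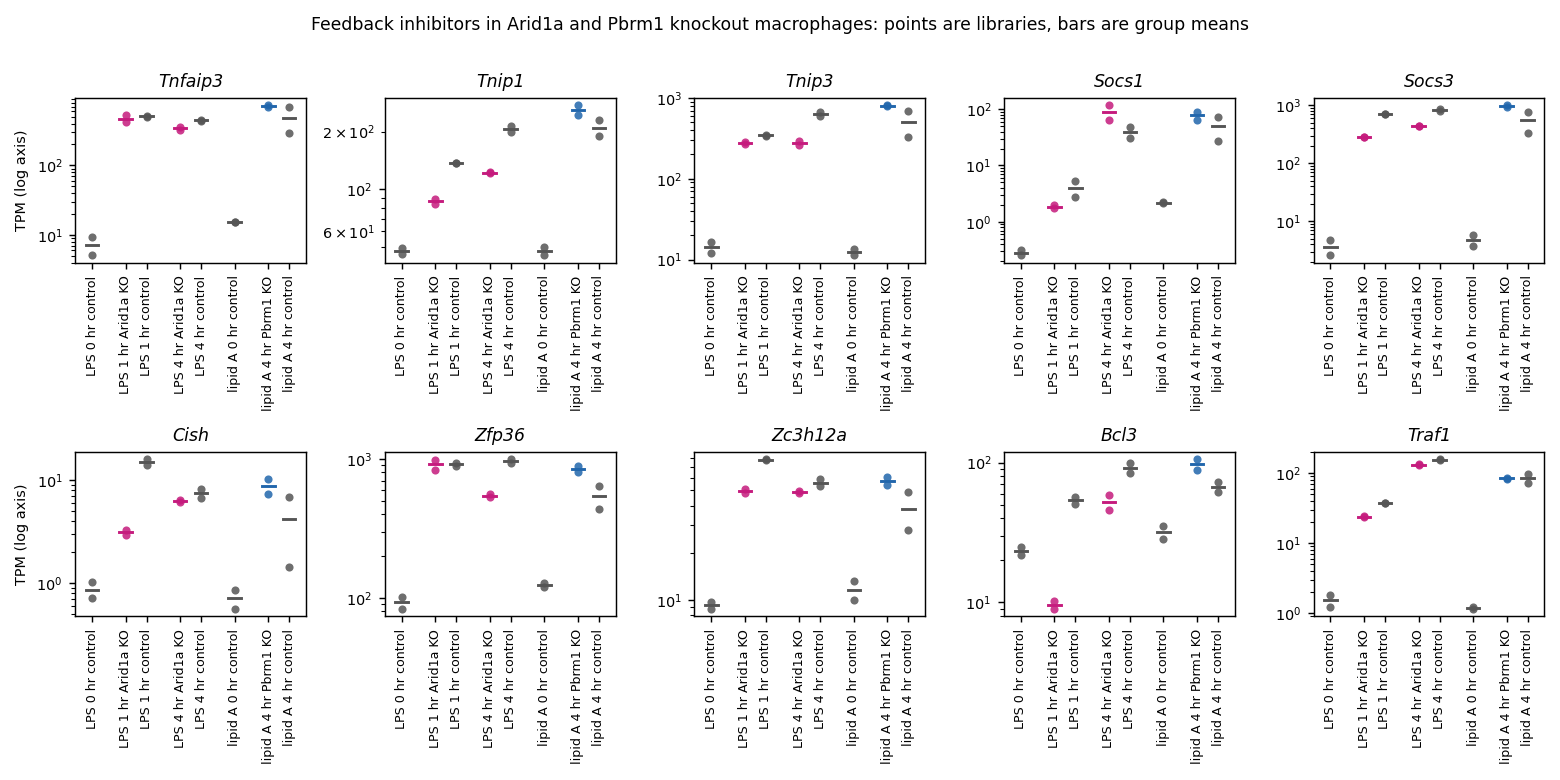
Members in Arid1a-/- and Arid1af/f macrophages under LPS and in Pbrm1-/- and Pbrm1f/f macrophages under lipid A; points are libraries, bars are group means and the vertical axis is TPM on a log scale. Bcl3 and Cish at 1 hr lie far below their Arid1af/f libraries, and 1 Pbrm1f/f library at 4 hr lies below its partner for all 10 members.

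The effect of Arid1a loss at 4 hr was compared with that at 1 hr in an interaction term, called for 6 members with 15.9% of all genes called. Bcl3 (1.57 ± 0.20, adjusted p = 0.000877) and Cish (1.73 ± 0.20, adjusted p = 0.000585) were less reduced at 4 than at 1 hr. Tnip3 (-0.88 ± 0.18) and Zfp36 (-0.82 ± 0.15) were more reduced at 4 hr. Socs1 (1.91 ± 0.51, adjusted p = 0.046) and Zc3h12a (0.47 ± 0.13, adjusted p = 0.0416) were also called, but each call was lost when any 1 of 5 of the 8 libraries was left out.

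In Pbrm1-/- macrophages at 4 hr of lipid A, 0 of 10 members passed the test in limma, where 0.00905% of all genes fell and 0% rose. At an unadjusted p of 0.05 there were 3, Zfp36, Zc3h12a and Bcl3, and limma voom on the recovered reads called 0. Pbrm1 itself had 4.54 and 5.03 TPM in Pbrm1-/- cells, against 15.6 and 14.7 TPM in Pbrm1f/f cells (-1.48 ± 0.17, adjusted p = 0.113), so the test of this experiment did not call a transcript whose groups lay far apart. Tnfaip3 had 728 and 681 TPM in Pbrm1-/- cells, against 681 and 289 TPM in Pbrm1f/f cells. Socs3 had 989 and 916 TPM in Pbrm1-/- cells, against 757 and 334 TPM, and Cish 7.41 and 10.4 TPM, against 6.93 and 1.43 TPM. For all 10 members Pbrm1f/f replicate 2 was the lower of the 2 control libraries. With all libraries the changes in Pbrm1-/- cells were 0.01 to 1.16. Without control replicate 2, which differs from replicate 1 over all genes, the changes were -0.21 to 0.42. Set against control replicate 2 alone, both Pbrm1-/- libraries were higher for every member. The changes therefore depend on which control library is kept.

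Other genes of the same circuits were counted beside the members. In Pbrm1-/- cells 0 passed in every list. Transcripts known to be bound by tristetraprolin or regnase-1 rose in full, 11 of 11, at 1 hr or 60 min in experiments 1, 2 and 4. Of all genes 9.9%, 13.6% and 7.47% rose in these comparisons. At 60 min 9 of the 11 listed transcripts fell and 1 rose with BRM014, and 8 fell and 1 rose with BRDK98. Of all genes 13.4% fell and 16.4% rose with BRM014, and 5.52% fell and 6.04% rose with BRDK98. The list medians were -1.49 and -2.62, against 0.04 and 0.08 for all genes. Csf2, a growth factor gene, averaged 2.6 TPM with BRM014 and 0.135 TPM with BRDK98, against 17.6 TPM in control cells, and Cxcl1, a neutrophil chemokine gene, 19 TPM with BRDK98, against 274 TPM. In the same libraries Zfp36 was higher and Zc3h12a did not pass. The rise of Zfp36 with BRM014 was not called by the authors, and a link with the listed transcripts was not tested. At 20 min 7 of the 11 fell with BRDK98 and 6 with BRM014, where 0.84% and 0.329% of all genes fell (list medians -1.04 and -0.88, against -0.01 and -0.03). Among them was Cxcl2, which averaged 35 TPM with BRDK98 and 36.7 TPM with BRM014, against 150 TPM in control cells. In Arid1a-/- cells 5 fell and 1 rose at 1 hr, where 16.8% of all genes fell and 18.8% rose (list median -0.20, against 0.03). At 4 hr 2 fell and 4 rose, where 10.8% of all genes fell and 14% rose (0.52, against 0.05).

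Of 17 JAK-STAT pathway components, 7 rose and 0 fell with ACBI1 at 60 min, and 0 rose and 9 fell with BRM014 (medians 0.13 and -0.29, against -0.14 and 0.04 for all genes). Of all genes 11.6% rose and 13.4% fell with ACBI1 at this time, and 16.4% rose and 13.4% fell with BRM014. Stat2, an interferon-responsive factor gene, rose with ACBI1 (151 against 56.4 TPM), and the interleukin-10 receptor gene Il10ra fell with BRM014 (91 against 233 TPM). In Arid1a-/- cells 2 rose and 9 fell at 1 hr, and 0 rose and 10 fell at 4 hr. Their medians were -0.33 and -0.40, against 0.03 and 0.05 for all genes. Of all genes 18.8% rose and 16.8% fell at 1 hr, and 14% rose and 10.8% fell at 4 hr. Among those fallen at 4 hr were Stat5a, which transmits GM-CSF signals (35.5 against 90 TPM), and Ifnar1, an interferon receptor gene (44.6 against 83 TPM). At 4 hr of lipid A, 8 fell with ACBI1, 10 with BRM014 and 6 with BRDK98, and 1, 0 and 1 rose, all against the single control library. The list medians were -0.20, -0.42 and -0.06, against 0.25, 0.43 and 0.46 for all genes, of which 13.5%, 16.4% and 12.4% fell and 20%, 26.4% and 22% rose. The GM-CSF receptor subunit gene Csf2rb fell with BRM014 (18.9 against 103 TPM) and with BRDK98 (39.2 against 103 TPM). Of 13 other brakes on this pathway, 3 rose and 2 fell with ACBI1 at 4 hr, 4 rose and 3 fell with BRM014 and 3 rose and 2 fell with BRDK98 (medians 0.14, 0.39 and 0.55, against 0.25, 0.43 and 0.46 for all genes). These counts lie near the shares of all genes given above for 4 hr. Socs2, a further SOCS gene, rose with BRDK98 (7.11 against 0.433 TPM). The phosphatase gene Ptpn6 had 117 TPM with ACBI1, 13.9 TPM with BRM014 and 37.4 TPM with BRDK98, against 326 TPM in the 4 hr control, but rose with ACBI1 at 60 min (216 against 104 TPM). Of the 12 tested at 60 min, 2 rose and 0 fell with ACBI1, 1 rose and 1 fell with BRM014, and 1 rose and 0 fell with BRDK98 (medians -0.03, -0.14 and 0.06, against -0.14, 0.04 and 0.08). In the same order 11.6%, 16.4% and 6.04% of all genes rose and 13.4%, 13.4% and 5.52% fell. Usp18, a brake on interferon signalling, rose with ACBI1 at 60 min (204 against 47.8 TPM) and in Arid1a-/- cells at 1 hr (38.1 against 6.67 TPM).

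Of 21 components of the TNF receptor and NF-kB pathway, 1 rose and 10 fell with BRM014 at 60 min, and 0 rose and 10 fell in Arid1a-/- cells at 1 hr (medians -0.26 and -0.27, against 0.04 and 0.03 for all genes). Of all genes 16.4% rose and 13.4% fell in the BRM014 comparison, and 18.8% rose and 16.8% fell in the Arid1a comparison. With ACBI1 at 60 min 6 of the 21 rose and 1 fell (median -0.11, against -0.14), among them Rnf31, which encodes a linear ubiquitin ligase subunit (29.5 against 14.1 TPM). Rel, an NF-kB subunit gene, fell in both, with 16.3 against 103 TPM and 36.2 against 86.3 TPM. Tnfrsf1b, a TNF receptor gene, also fell in both, with 107 against 295 TPM and 73.4 against 259 TPM. Of 16 other brakes on NF-kB and TLR signalling, 0 rose and 6 fell with BRM014 at 60 min, where 16.4% of all genes rose and 13.4% fell. At 4 hr 2 rose and 7 fell, where 26.4% of all genes rose and 16.4% fell. With ACBI1 at 60 min 5 rose and 3 fell, where 11.6% of all genes rose and 13.4% fell (list medians -0.35, -0.05 and -0.03, against 0.04, 0.43 and -0.14). Il1rn, which encodes the interleukin-1 receptor antagonist, had 342 TPM with ACBI1, 19.6 TPM with BRM014 and 51.9 TPM with BRDK98 at 60 min, against 194 TPM in control cells, and passed in each. Irak3, an inhibitor of TLR signalling, had 33.3 TPM with ACBI1, 16.7 TPM with BRM014 and 6.08 TPM with BRDK98, against 75.9 TPM in the 4 hr control. Of 7 tested other mRNA decay factors, 4 rose and 1 fell with ACBI1 at 60 min, 0 rose and 4 fell with BRM014, and 2 rose and 2 fell with BRDK98 (medians 0.34, -0.65 and 0.07, against -0.14, 0.04 and 0.08 for all genes). In the same order 11.6%, 16.4% and 6.04% of all genes rose and 13.4%, 13.4% and 5.52% fell. Zfp36l2, a relative of Zfp36, rose with ACBI1 (75.7 against 46.1 TPM) and with BRDK98 (91.4 against 46.1 TPM). Zc3h12c, a relative of Zc3h12a, fell at 60 min with ACBI1 (33.3 TPM), BRM014 (7.19 TPM) and BRDK98 (9.13 TPM), against 70.1 TPM in control cells, while Zc3h12a passed with none of them.

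Across the 23 group means, the genes most like each member by Pearson correlation of log2(TPM + 1), centred within each experiment, were found among 10409 genes and are a description only. Tnfaip3 was followed by Pim1 (r = 0.98) and Ccrl2 (0.97), Socs3 by Dusp2 (0.98) and Ccl3 (0.96), Traf1 by Sod2 and 4933416M07Rik (0.97 each) and Tnip3 by Rab11fip1 (0.96) and 4933416M07Rik (0.95). Zfp36 was followed by Dusp1 and its fellow member Zc3h12a (0.94 each), and Zc3h12a by Pim1 and Nfkbiz (0.95 each). Tnip1 was followed by Ube2f and Gm16712 (0.94 each), Socs1 by Cd69 (0.93) and Pnp2 (0.92), and Bcl3 by Tnfrsf1b (0.91) and Samd4b (0.86). Cish had the weakest best match, Kcna3 (0.87), then Vps37c (0.86). Between members r ran high for Tnfaip3 and Socs3 (0.96) and for Tnip1 and Traf1 (0.92), and low for Socs1 and Bcl3 (0.13) and for Tnfaip3 and Bcl3 (0.30). The means share the 4 experiments, the stimulus and the control libraries.

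Since counting ignored strand, reads of an overlapping gene cannot be told apart from those of a member. Cish shares 7.46% of its annotated exonic bases with the antisense gene Gm17041 and 4.07% with Gm17040, Bcl3 6.51% with Gm16175 and Zfp36 3.6% with Gm44710, and the other 7 members share none. Cish was measured on a model of 2789 exonic bases in experiments 1 and 3 and of 3009 in experiments 2 and 4, so its levels are not compared between those pairs.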

How the data were processed

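The deposited TPM tables, scaled by the authors for exon length and library size, and the deposited tables of the authors' comparisons were used. Those comparisons hold log2 fold changes with p-values made by the authors. Per the labels' protocols, libraries came from a stranded mRNA kit read as 50 base single ends. The submitters' processing notes name STAR 2.5.3a, HOMER, DESeq2 and mm10 or GRCm38. Per the file headers, reads were counted in exons on both strands. Genes at 1 TPM or more in at least 2 libraries (11531, 11798, 11044 and 11549 in experiments 1 to 4) were fitted in limma 3.58.1 (R 4.3.3) on log2(TPM + 1), 1 fit per experiment with all groups, trend and robust moderation, with Benjamini-Hochberg adjustment per contrast. A call needed an adjusted p of 0.05 and the same sign on TPM as deposited and on median-ratio scaled TPM. The fit was tested on simulated data.

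In experiment 1, 1 column matched to no sample. Its name and its values in all 24537 genes are those of 4 hr control replicate 1. In the comparison tables, 46 log-scale columns of single samples were not used. Low values were whole reads within 0.1 read in 99.27% or more of cases, so depth could be recovered, but counts were used in an alternative only. Floors cover counting error only. Header totals were 8466037 to 31491682 reads. The members and gene lists were chosen with earlier results of these data known. All members are named, with up to 4 called genes of a list per comparison at 5 TPM or more, and 2 similar genes per member. Alternatives were either scaling alone, a pseudocount of 0.1, no filter, no trend or robust moderation, a replicate block, limma voom on recovered reads and leaving out each library.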

Additional observations from a re-analysis of the deposited data

Results flagged for a closer look

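Effects of a perturbation that differed between times of stimulus, by the interaction term in limma, are listed as the later effect minus the earlier one on the log2 scale. For Arid1a-/- minus Arid1af/f cells, 4 hr minus 1 hr of LPS, the differences were -0.88 for Tnip3, 1.91 for Socs1, 1.73 for Cish, -0.82 for Zfp36, 0.47 for Zc3h12a and 1.57 for Bcl3. The values of Socs1 and Zc3h12a each lost their call when any 1 of 5 of the 8 libraries was left out.

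For ACBI1 minus control, 60 min minus 20 min of lipid A, the differences were -0.86 for Tnfaip3, -0.89 for Tnip3, 0.93 for Socs1 and 0.64 for Traf1. Of the 8 libraries, leaving out any 1 of 7 ended the call of Socs1 and any 1 of 4 that of Traf1. For BRM014 they were -1.89 for Tnfaip3, -1.36 for Tnip1, -2.04 for Tnip3, 3.32 for Socs1, -1.54 for Cish, 0.65 for Zfp36, -2.18 for Bcl3 and -3.52 for Traf1. For BRDK98 they were 0.93 for Tnfaip3, -1.09 for Tnip1, -1.23 for Tnip3, 2.10 for Socs3, -1.89 for Cish, 1.29 for Zfp36 and -2.73 for Traf1. The negative terms of Cish and Traf1 largely restate their 60 min changes, since both were too low in 20 min controls to fall much. The 3 compounds share their controls at both times. No group holds enough libraries for a test of single outlying samples.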

How the results depend on the processing

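Of 350 member changes in 35 comparisons, 223 were called. TPM as deposited alone lost 0 and gained 11 calls, median-scaled TPM alone lost 0 and gained 15, a pseudocount of 0.1 lost 3, no filter lost 6, limma without trend and robust moderation lost 2, voom lost 4 and gained 6, and leaving out a library lost 58 of the calls over 1460 values. Direction turned with scaling alone for Tnip1 between 1 and 4 hr of lipid A in experiment 1 (0.40 scaled, against -0.14) and for Tnfaip3 with BRDK98 at 4 hr (-0.52 scaled, against 0.12). Members called with ACBI1 at 60 min numbered 2, but 4 on TPM as deposited alone (1 higher, 3 lower), 4 on scaled TPM alone (3 higher, 1 lower) and 1 with a pseudocount of 0.1. With single libraries left out the members called ranged from 0 to 0 for ACBI1 at 20 min, 1 to 2 for ACBI1 at 60 min, 0 to 8 for Pbrm1 and 2 to 4 for the ACBI1 difference between times. The cause was not tested. The lone 4 hr control of experiment 1 could not be left out.

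Replicate numbers did not pair the samples: correlations of same-numbered deviations ran from -0.239 to 0.236. A replicate block kept 222 of 223 calls, lost 1 (Zc3h12a in the Arid1a difference between times) and gained 6.

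Counts over all genes moved by more than 1.5 times with TPM as deposited alone, for ACBI1 at 60 min (4539 against 2880), BRDK98 (7152 against 3976) and BRM014 (7459 against 4928) at 4 hr, LPS at 4 hr (9522 against 6282), lipid A at 1 hr (7265 against 3368), 4 hr in experiment 3 (8612 against 5114), 60 min (7172 against 2923), 60 minus 20 min (6636 against 2679), BRDK98 minus ACBI1 at 60 min (6618 against 3969) and Pbrm1 (7 against 1). BRDK98 at 4 hr had 5976 on scaled TPM alone. Voom gave 28 against 16 for ACBI1 and 238 against 153 for BRDK98 at 20 min, and 2 against 1 for Pbrm1, which had 2 with no filter and 0 with a pseudocount of 0.1, without trend or with the block. At 0.0654 to 0.298 TPM for 3 reads, depth limits Socs1 and Cish at rest.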
